A study of Mus musculus with 12 samples.

Results

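The response of control bone marrow-derived dendritic cells to lipopolysaccharide (LPS) was read from 6 of the 12 RNA libraries of the series. The cells came from bone marrow of wild-type C57BL6 mice, were cultured to day 7 and were enriched as live CD11c+ cells. The control cells had no conditioning agent (treatment Nil, called BMDC here), and 3 libraries of BMDC were set against 3 libraries of BMDC that had also received LPS. The other 6 libraries hold cells conditioned with vitamin D and IL-10 (VitD/IL10, called TolDC here), without and with LPS, and enter only where the responses are compared. The sources used here give neither the dose of LPS nor the hours of exposure, and they do not name the cytokines of the culture. They also do not say whether libraries of a group came from separate mice or cultures, so a p-value here speaks only of how far these samples vary, a variation that may be of technical origin. All 13141 genes that passed a filter on low counts, of 31054 in the files, were tested.

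LPS is the outer-membrane glycolipid of Gram-negative bacteria. LPS-binding protein and CD14 pass it to the receptor pair TLR4 and MD-2 (gene Ly96), which signals through the adaptors MyD88 and TRIF to NF-kB, MAP kinases and interferon regulatory factors. A dendritic cell that receives this signal is known to stop sampling its surroundings, to process and show antigen, to move toward lymph nodes and to instruct T cells through surface ligands and cytokines.

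NF-kB and the interferon-activated factors are known to act on short DNA motifs near gene starts, so the 250 bases before the start of strongly induced genes were read from the RefSeq promoter table (build GRCm38.p6). The letters searched, on both strands, were GGANTTTCC for NF-kB and GAAANNGAA for the interferon element. Of 27025 genes with a promoter in the table, 1.25% held the NF-kB letters and 8.18% the interferon letters in these 250 bases. Among 32 of the genes chosen by the naming rule that were at least 16-fold higher with LPS and had a promoter, 7 held the first, 4 the second and 9 either. The rule for these genes used the size of the response, so the counts describe the genes and test nothing. Named genes on the chromosome of Cd14 and Lox, both more than 16-fold higher, were left out of the 32. The 27025 genes kept that chromosome, so the counts and the shares come from unlike sets. Matched letters are in capitals in the following 6 sequences, each 250 bases long, ending at the base before the start and written 5′ to 3′ on the strand of the gene.
Cxcl1, chr5:90890995-90891244, plus strand: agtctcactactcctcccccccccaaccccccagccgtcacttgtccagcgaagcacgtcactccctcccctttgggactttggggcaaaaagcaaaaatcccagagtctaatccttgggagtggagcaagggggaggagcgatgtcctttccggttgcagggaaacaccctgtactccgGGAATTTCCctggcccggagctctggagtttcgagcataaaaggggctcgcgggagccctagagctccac
Cxcl2, chr5:90903649-90903898, plus strand: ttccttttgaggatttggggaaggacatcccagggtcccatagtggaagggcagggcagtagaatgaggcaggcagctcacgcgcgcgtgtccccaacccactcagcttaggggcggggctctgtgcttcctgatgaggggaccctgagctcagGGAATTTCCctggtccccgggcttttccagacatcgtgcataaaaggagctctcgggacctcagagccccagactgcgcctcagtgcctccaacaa
Il6, chr5:30012864-30013113, plus strand: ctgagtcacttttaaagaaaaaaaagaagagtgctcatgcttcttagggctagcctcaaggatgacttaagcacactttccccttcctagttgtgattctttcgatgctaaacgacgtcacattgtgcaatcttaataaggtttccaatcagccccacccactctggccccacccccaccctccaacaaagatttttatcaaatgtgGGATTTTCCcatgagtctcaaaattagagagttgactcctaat
Acod1, chr14:103046762-103047011, plus strand: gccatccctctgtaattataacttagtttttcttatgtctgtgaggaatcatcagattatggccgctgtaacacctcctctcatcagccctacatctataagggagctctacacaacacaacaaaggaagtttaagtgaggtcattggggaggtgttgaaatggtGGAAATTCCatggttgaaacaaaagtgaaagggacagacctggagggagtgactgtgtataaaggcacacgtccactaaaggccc
Cxcl10, chr5:92348890-92349139, minus strand: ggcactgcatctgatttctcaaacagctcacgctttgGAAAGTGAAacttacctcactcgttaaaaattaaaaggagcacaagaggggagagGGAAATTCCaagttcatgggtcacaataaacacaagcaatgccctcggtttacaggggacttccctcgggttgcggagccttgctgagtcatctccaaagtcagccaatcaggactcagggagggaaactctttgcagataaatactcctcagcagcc
Isg15, chr4:156200819-156201068, minus strand: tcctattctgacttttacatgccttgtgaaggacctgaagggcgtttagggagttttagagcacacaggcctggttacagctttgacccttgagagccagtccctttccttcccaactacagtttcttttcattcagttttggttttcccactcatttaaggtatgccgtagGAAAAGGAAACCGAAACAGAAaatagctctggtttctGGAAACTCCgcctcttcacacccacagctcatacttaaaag

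The NF-kB letters begin 70 bases before the start in Cxcl1, 96 in Cxcl2, 43 in Il6, 85 in Acod1, 158 in Cxcl10 and 41 in Isg15. Cxcl10 also holds the interferon letters, beginning 213 bases before its start, and in Isg15 3 overlapping copies begin 78, 72 and 66 bases before it. The 3 chemokine genes encode attractants of neutrophils (Cxcl1, Cxcl2) and of T cells (Cxcl10), Il6 a cytokine, Acod1 the enzyme that makes itaconate and Isg15 a ubiquitin-like protein. Cxcl1 stood at 0.176, 0.0324 and 0.0861 CPM without LPS and 47.6, 43.9 and 46.3 CPM with LPS, where CPM stands for counts scaled to a common library size. Il6 stood at 4.16, 5.12 and 5.42 CPM without LPS and 473, 450.4 and 465 CPM with LPS, and Isg15 at 10.8, 11.2 and 13.5 CPM without LPS and 229, 245 and 251 CPM with LPS. In all 6 genes the lowest LPS library lay above the highest unstimulated library. The rule for the largest rises, which named Cxcl1, Cxcl2, Il6 and Cxcl10, required this. The log2 changes were 8.82 for Cxcl1, 6.81 for Cxcl2, 6.57 for Il6, 6.31 for Cxcl10, 4.98 for Acod1 and 4.36 for Isg15. The other 3 of the 32 genes with a match were Saa3, Jag1 and H2-M2.

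The 6 libraries held 21844405 to 30007479 reads assigned to genes, and 79.3% to 80.3% of reads were assigned. The first principal component of the 6 libraries carried 87.92% of the variance and separated BMDC from BMDC with LPS. The second carried 5.83% and separated library 1 of each group from libraries 2 and 3. Libraries 2 and 3 of a group differed from each other by 1.353 to 2.205 times counting error (chi-square per degree of freedom), and library 1 differed from them by 9.475 to 11.59 times. Summed markers of neutrophils and their precursors stood at 970.3 CPM in BMDC library 1 against 3128 and 3057 CPM in libraries 2 and 3, and at 1527 CPM in LPS library 1 against 3539 and 3335 CPM. The neutrophil granule gene S100a8 was not called different with LPS (adjusted p = 0.336, edgeR) and stood at 248, 1041 and 1013 CPM without LPS and 122, 568 and 521 CPM with LPS. With the replicate number as a block it was called lower, with a log2 change of -0.94 (adjusted p = 0.0045, edgeR). Cyp24a1, a vitamin D target gene, had 304 counts in BMDC library 3, 0 and 1 in the other BMDC libraries, 0 in all 3 LPS libraries and 15846 to 49465 in the libraries of TolDC. The source of those 304 counts was not tested.

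Markers of dendritic cells summed to 9869 to 10220 CPM without LPS and to 11630 to 13070 CPM with LPS, but single members went both ways: of 16 tested, 8 rose, 2 of them by 2-fold or more, and 7 fell, 5 of them by 2-fold or more. Itgax, which encodes the CD11c protein used in the enrichment, fell from 2077 ± 153 to 1357 ± 156 CPM (mean ± SD, n = 3), and Zbtb46, a transcription factor of conventional dendritic cells, rose from 31.9 ± 2.25 to 64.1 ± 4.56 CPM. Flt3, the growth factor receptor of conventional dendritic cells in vivo, went from 0.772 ± 0.136 to 1.38 ± 0.427 CPM, a rise whose call was lost under several alternatives, with an adjusted p of 0.0672 by DESeq2. The 18 monocyte and macrophage markers summed to 6582 to 6815 CPM without LPS and to 2107 to 2758 CPM with LPS. Of the 17 of them that were tested, 5 rose and 11 fell, among them Mertk and Mrc1, while Cd14 and Adgre1 rose. In bulk RNA of this kind, fewer cells of a type and less RNA per cell cannot be told apart. Plasmacytoid dendritic cell markers summed to 155.1 to 159.7 CPM without LPS and to 590.8 to 698.3 CPM with LPS, of which Irf7 and Bst2 made the larger part, and the defining marker Siglech was at 0 in all LPS libraries. B cell markers summed to 4.975 to 9.594 CPM without LPS and 6.368 to 10.18 CPM with LPS. T, NK and innate lymphoid markers summed to 55.07 to 85.39 CPM and to 93.76 to 130.8 CPM, with 3 of 16 tested called higher and none lower. Erythroid and megakaryocyte markers summed to 35.11 to 41.66 CPM and to 125.9 to 130.7 CPM, most of it Car2, with Hba-a2 and Car1 at 0 in all 6 libraries. Mast cell, basophil and eosinophil markers summed to 599.1 to 787.7 CPM and to 382.7 to 554.9 CPM, with 2 of 17 tested higher, 2 lower and the mast cell tryptase gene Tpsab1 at 0. The part of these cells in the results was not tested.

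LPS moved the larger part of the expressed genes. By edgeR's quasi-likelihood test with Benjamini-Hochberg adjustment, 4825 genes were higher with LPS (36.7% of those tested), 4789 were lower (36.4%) and 3527 were not called at an adjusted p below 0.05. These shares are the background for the counts of each gene list given further on. The groups did not overlap for 9825 of the 13141 genes tested. Lack of overlap was required of genes named as the largest rises and falls, so for those it is no separate result. A 2-fold or larger change was found for 1472 higher genes (11.2%) and 1444 lower genes (11%). At 4-fold the counts were 534 and 447, and at 16-fold 131 and 58, with more rises than falls at both of these sizes. At 2-fold the order turned in some alternatives. There were 1343 rises and 1374 falls with only the 6 BMDC libraries, and 1662 and 1701 with no filter on low counts. The median change over all tested genes was near 0 on the log2 scale and the median size of a change, in either direction, was 0.4535. The plot of level against change shows both arms over the whole range of abundance.

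**Figure D1:**
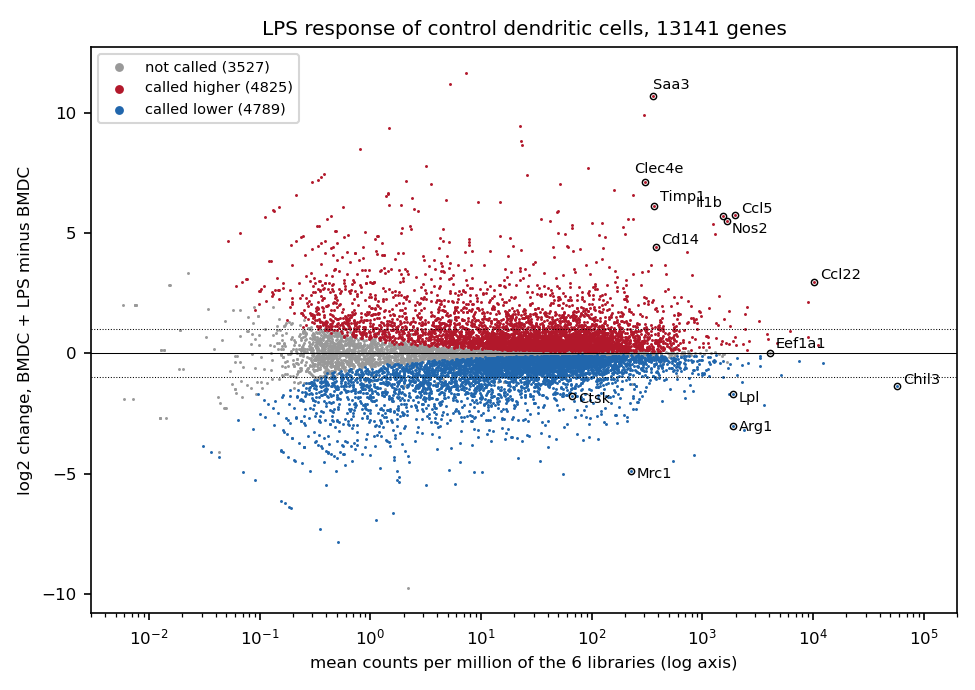
Each point is 1 of 13133 genes (8 at 0 in all 6 libraries are not drawn), placed by its mean CPM on a log axis and its log2 change with LPS; red is called higher, blue called lower, grey not called, and dotted lines mark 2-fold. Called genes lie on both sides from the rarest to the most abundant, Saa3, Clec4e and Timp1 far above the lines and Mrc1 and Arg1 far below.

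The response reached into the most abundant RNAs. Genes at least 2-fold higher held 5.622% to 5.68% of assigned reads without LPS and 20.09% to 20.16% with LPS. Genes at least 2-fold lower held 16.7% to 17.13% and then 5.438% to 5.58%. The 131 genes at least 16-fold higher went from 0.06206% to 0.06563% of reads to 2.509% to 2.545%. These genes were chosen by the same change, so the shares describe its weight in the library and test nothing.

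**Figure D2:**
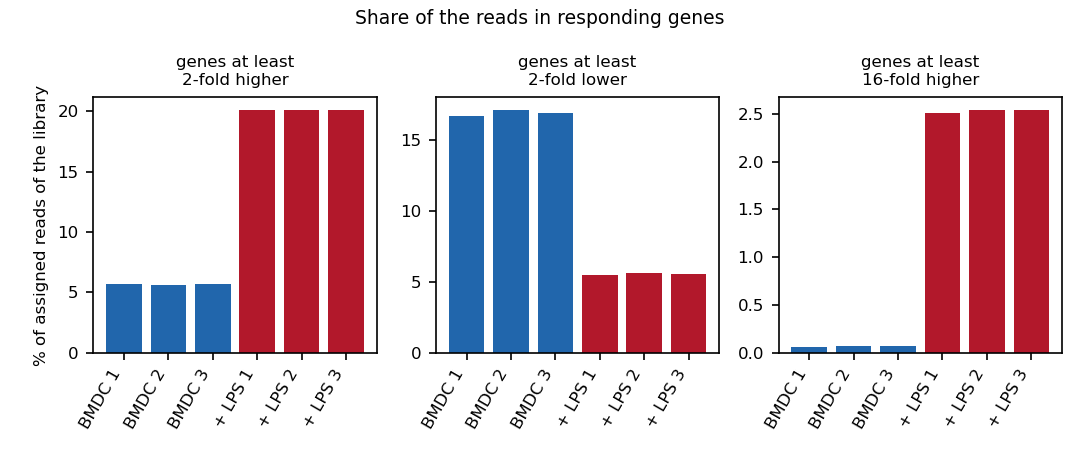
Bars give the percentage of each library's assigned reads that fell on genes at least 2-fold higher, at least 2-fold lower and at least 16-fold higher with LPS, for 3 BMDC libraries (blue) and 3 LPS libraries (red). The libraries of a group differ little, with 20.09% to 20.16% against 5.622% to 5.68% in the left panel.

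Chil3 took more reads than any other gene in all 6 libraries. Chil3, a chitinase-like secreted protein, took 8.193%, 8.845% and 8.685% of reads without LPS and 3.095%, 3.152% and 3.16% with LPS, so every LPS library lay below every unstimulated one. In TPM, a scale of transcript abundance that divides by gene length, it went from 148700 ± 3803 to 56020 ± 429.2. Ccl22, a chemokine for CCR4-bearing T cells, went from 2916 ± 36.84 to 22380 ± 1258 TPM. Fth1, the iron-storing ferritin heavy chain, went from 2859 ± 118.6 to 12150 ± 63.06 TPM, and its light chain Ftl1 from 15000 ± 760.9 to 23690 ± 85.27 TPM. Cd74, the MHC class II invariant chain, went from 7353 ± 187.1 to 13720 ± 847.7 TPM. In the other direction Lyz2, the lysozyme of myeloid cells, went from 9473 ± 280.7 to 1007 ± 259.3 TPM, and Psap, the precursor of lysosomal saposins, from 14700 ± 344.5 to 11000 ± 433.7 TPM. All of these passed the test, with log2 changes in CPM of -1.38 for Chil3, 2.97 for Ccl22, 2.12 for Fth1, 0.69 for Ftl1, 0.93 for Cd74, -3.21 for Lyz2 and -0.39 for Psap.

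The parts of the LPS sensor moved in opposite directions. Cd14, the co-receptor that hands LPS to the signalling receptor, stood at 31.5, 33.7 and 35.6 CPM without LPS and 709, 736 and 721 CPM with LPS. Tlr4, the signalling receptor itself, stood at 131, 126 and 121 CPM without LPS and 61.2, 61.6 and 58.3 CPM with LPS. Ly96, which encodes the LPS-binding partner MD-2, stood at 7.34, 9.43 and 9.64 CPM without LPS and 28.04, 26.2 and 25.04 CPM with LPS. None of these genes had overlapping groups: Cd14 rose (log2 change 4.43, SE 0.05, adjusted p = 2.31e-21, edgeR), Ly96 rose (log2 change 1.59, SE 0.09, adjusted p = 8.3e-12) and Tlr4 fell (log2 change -1.06, SE 0.05, adjusted p = 4.72e-13). Per length, mean Cd14 went from 56.44 to 1189 TPM while Tlr4 went from 66.19 to 30.97 TPM and Ly96 from 25.07 to 73.73 TPM, so the co-receptor was below the receptor before LPS and far above it after. Of the 20 genes in the list of the receptor complex and its modulators, 5 rose, 13 fell and 2 were not called (median log2 change -0.4797). Among them Ly86, the partner of the TLR4 relative RP105, fell from 14.1 ± 0.0571 to 2.34 ± 0.5503 CPM, and Trem2, a lipid receptor of macrophages, from 217 ± 8.94 to 44.2 ± 3.503 CPM. Treml4, another receptor of the TREM family, rose from 1.98 ± 0.281 to 11.2 ± 1.01 CPM.

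Downstream of the receptor, 25 of 35 adaptors and kinases rose and 6 fell. Irak3, a kinase-dead relative of the IRAK kinases that restrains the pathway, rose from 37.8 ± 0.905 to 129 ± 8.66 CPM, and Ikbke, a kinase of interferon regulatory factors, from 99.5 ± 1.2995 to 333 ± 11.3 CPM. Traf6, the ubiquitin ligase behind IRAK, and Mapkapk2, the kinase under p38, had log2 changes of 1.13 and 1.11. Of 22 other pattern receptors, 13 rose and 5 fell. Clec4e, the Mincle receptor for mycobacterial and dead-cell glycolipids, stood at 3.85, 4.89 and 4.05 CPM without LPS and 555, 629.8 and 624 CPM with LPS. Its neighbour and partner Clec4d rose too, from 27.3 ± 0.744 to 158 ± 20.03 CPM. Tlr8, a sensor of RNA, and Tlr11, a sensor of profilin, fell: Tlr8 stood at 48.5, 42.4 and 39.5 CPM without LPS and 2.74, 3.59 and 4.23 CPM with LPS and Tlr11 went from 20.3 ± 1.37 to 4.58 ± 0.368 CPM. For all 4 of these receptors the LPS libraries were clear of the unstimulated ones, which the rule for the largest changes required of Clec4e and Tlr8.

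**Figure D3:**
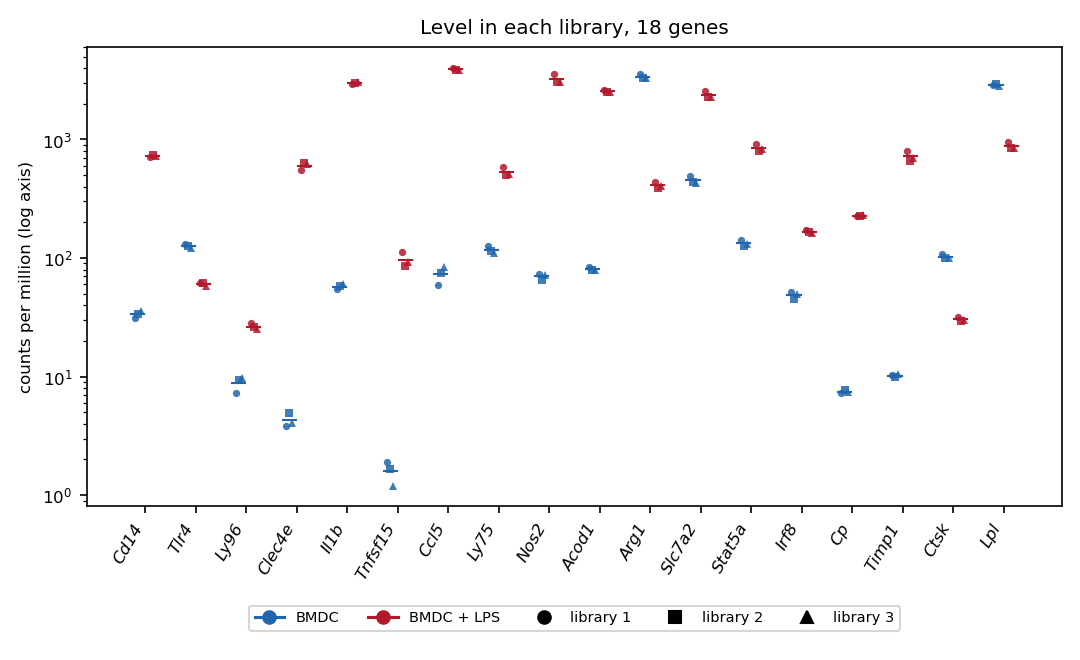
Points give the CPM (log axis) of 18 genes in each of the 3 BMDC (blue) and 3 LPS (red) libraries, with marker shape for the library number and a bar at the group mean. In all 18 the groups are apart, as they are in 9825 of the 13141 genes tested. The 18 were picked for display, so their separation is no separate result. Cd14 moves from 31.5 to 35.6 CPM up to 709 to 736 CPM, and Arg1, Ctsk and Lpl move down.

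Most inhibitors of the pathway rose. In the list of MAP kinase phosphatases, SOCS proteins and other feedback inhibitors, 23 of 34 rose and 8 fell (median log2 change 0.637). Socs3, which blocks signalling from IL-6 family receptors, stood at 71.7, 61.8 and 66.4 CPM without LPS and 895, 831 and 839 CPM with LPS. Dusp1, the phosphatase of p38 and JNK, rose from 27.1 ± 1.28 to 187 ± 10.5 CPM. Tnfaip3, the A20 ubiquitin editor that shuts off NF-kB, and its partner Tnip1 rose from 70.4 ± 2.56 to 341 ± 6.07 CPM and 65.8 ± 2.44 to 341 ± 1.57 CPM in turn. In the list for RNA decay and translation of cytokine transcripts, whose members are not all inhibitors, 14 of 20 rose and 4 fell. The RNase gene Zc3h12a (regnase-1) had a log2 change of 2.60 and its relative Zc3h12c of 1.34. The changes of Btg1 and N4bp1 were smaller, at 1.30 and 0.80.

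The immediate early AP-1 factors did not move as 1 group. Of 28 AP-1, ATF and EGR factors, 21 rose and 6 fell. Junb stood at 289, 266 and 295 CPM without LPS and 936, 904 and 887 CPM with LPS, and Maff, a small MAF protein, rose from 15.3 ± 0.614 to 46.6 ± 2.53 CPM. Fos stood at 35.99, 34.2 and 34.2 CPM without LPS and 10.7, 10.7 and 10.4 CPM with LPS, so every LPS library was below every unstimulated library, and Myc, the growth-promoting factor listed with them, fell from 55.8 ± 4.98 to 16.9 ± 2.09 CPM. Jun had a log2 change of only 0.41. The hours between LPS and harvest are not given, so these levels cannot be placed on a time course.

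Interferon signalling genes were among the lists with the most rises. Of 24 IRF and STAT factors and interferon receptors, 20 rose and 2 fell (median log2 change 0.8476). Stat5a, which signals for GM-CSF, stood at 142, 127 and 132 CPM without LPS and 914, 796 and 824 CPM with LPS. Irf8, a lineage factor of dendritic cells, stood at 51.3, 45.1 and 49.7 CPM without LPS and 174, 166 and 162 CPM with LPS. Irf1, which drives MHC class I and guanylate-binding protein genes, rose from 159 ± 3.56 to 290.1 ± 20.3 CPM, and Irf4 moved from 386 ± 18.6 to 452 ± 36.96 CPM, with a log2 change of 0.23. The receptor chain for interferon gamma, Ifngr1, went the other way, from 177 ± 3.96 to 52.7 ± 5.26 CPM. Irf7, the amplifier of type I interferon, rose with a log2 change of 4.84 (SE 0.27); it stood at 4.798, 11.3 and 10.7 CPM without LPS and 211, 285 and 270.0 CPM with LPS, lowest in library 1 of both groups, as the neutrophil markers were, and the part of those cells was not tested. Of 22 ubiquitin-like modifiers and ligases of the interferon response, 20 rose and 1 fell, with a median of 1.201. Herc6, the mouse ligase for ISG15, rose from 51.5 ± 2.07 to 214 ± 3.01 CPM, Parp14, an ADP-ribosyltransferase, from 127 ± 7.33 to 521 ± 4.52 CPM, and Trim30d by 1.62 on the log2 scale. Of 22 interferon-induced GTPases and related defence genes, 16 rose and 2 fell. Gbp5, a guanylate-binding protein that coats bacteria, rose from 49.4 ± 1.73 to 516 ± 6.496 CPM, and Ifitm6, a membrane protein of the IFITM family, fell from 15.5 ± 3.26 to 1.14 ± 0.597 CPM. Gbp3 and Gbp4 had log2 changes of 1.84 and 2.16; guanylate-binding protein genes have near-identical copies, and reads that fit several places were not counted, so these levels are uncertain.

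IL-1 family genes showed very large rises beside a small fall of the inflammasome sensor. Il1b stood at 54.3, 57.7 and 59.9 CPM without LPS and 2941, 3024 and 3079 CPM with LPS, and Il1a at 59.6, 60.97 and 59.1 CPM without LPS and 2424, 2476 and 2466 CPM with LPS. Both rose (log2 change 5.72, SE 0.05, adjusted p = 1.98e-23 for Il1b, and log2 change 5.36, SE 0.05, adjusted p = 1.98e-23 for Il1a, edgeR). Il1f9, which encodes IL-36 gamma, rose from 4.05 ± 1.44 to 45.99 ± 7.37 CPM, and Il1f6 (IL-36 alpha) went from 0 counts in the 3 unstimulated libraries together to 1030 counts with LPS, at least 391-fold higher against a floor of 3 counts in the group. Nlrp3, the sensor that leads to cleavage of pro-IL-1 beta, moved only from 204 ± 14.1 to 179 ± 1.58 CPM, a called fall with a log2 change of -0.19. Of 30 tested genes of this list 17 rose and 8 fell.

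Among TNF family ligands and receptors 15 of 28 rose and 6 fell. Tnfsf15, which encodes TL1A, a co-stimulator of T cells through DR3, stood at 1.91, 1.65 and 1.21 CPM without LPS and 112, 85.8 and 93.3 CPM with LPS. Lta, the gene of lymphotoxin alpha, rose from 0.834 ± 0.0671 to 15.8 ± 1.28 CPM. Il23a, which encodes the p19 chain of IL-23, stood at 1.98, 1.72 and 1.08 CPM without LPS and 105, 87.7 and 95.96 CPM with LPS, and was among the 25 largest rises of genes at 5 CPM or more. The groups of these 3 genes did not overlap, which the rule for the largest rises required of Tnfsf15 and Il23a. Il10, which encodes an inhibitory cytokine, had 1 count without LPS and 56 with LPS in the 3 libraries together, a ratio of 63.78 with a 95% counting interval of 10.99 to 2564, and was at 0.7992 CPM with LPS.

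Chemokine receptors split almost evenly, 14 higher and 13 lower of 29. Ccr4, the receptor for CCL22 and CCL17, stood at 1.41, 1.49 and 1.33 CPM without LPS and 77.2, 61.98 and 65.4 CPM with LPS, so receptor and ligand Ccl22 rose in the same libraries. Ccrl2, a chemerin-binding receptor that does not signal, rose from 11.4 ± 0.905 to 128 ± 8.198 CPM, and S1pr3, a sphingosine 1-phosphate receptor, from 9.75 ± 0.432 to 85.6 ± 8.66 CPM. Ccr2, the receptor by which monocytes leave the marrow, fell by the largest factor of the list, from 1050.2 ± 46.5 to 46.5 ± 1.22 CPM. Fpr1, a formyl peptide receptor, rose, at 8.79, 18.5 and 17.3 CPM without LPS and 75.96, 136 and 129 CPM with LPS, with library 1 lowest in each group as for the neutrophil markers. Ccl5, a chemokine for T cells and monocytes, stood at 59.8, 75.4 and 83.6 CPM without LPS and 4017, 3848 and 3863 CPM with LPS. It rose in all 3 LPS libraries, with a log2 change of 5.75 (SE 0.14).

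Receptors that take up antigen and debris mostly fell. Of 19 C-type lectins and endocytic receptors, 12 fell and 5 rose (median log2 change -2.013) against a median near 0 over all genes tested. Mrc1, the mannose receptor, stood at 481, 426 and 409 CPM without LPS and 17.7, 12.4 and 13.3 CPM with LPS. Clec4b1 and Clec10a, lectins for sugars on microbes, fell, with log2 changes of -4.48 and -2.75. Mgl2, the CD301b lectin for galactose and N-acetylgalactosamine, stood at 1594, 1586 and 1604 CPM without LPS and 80.7, 87.7 and 87.8 CPM with LPS. Of 26 scavenger, dead-cell uptake and Fc receptors, 14 fell and 8 rose. Mertk, a receptor for dying cells, fell from 143 ± 16.2 to 28.3 ± 1.44 CPM, and Fcrls, a scavenger-type Fc receptor relative, from 107 ± 4.46 to 3.29 ± 0.568 CPM. Marco, a scavenger receptor for bacteria, stood at 2.43, 2.37 and 1.72 CPM without LPS and 38.5, 46.95 and 44.6 CPM with LPS, and Stab1, a further scavenger receptor, rose from 2.57 ± 0.271 to 11.2 ± 2.37 CPM. Cd36, the receptor for oxidised lipids, changed less, from 2677 ± 168 to 1926 ± 265 CPM.

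Antigen presentation genes were higher in many cases. Of 23 MHC class I and cross-presentation genes 18 rose and 4 fell (median log2 change 0.7965), and of 18 class II genes 9 rose and 5 fell, with a median of 0.2586. H2-M2, a non-classical class I gene, stood at 5.79, 5.704 and 4.56 CPM without LPS and 128, 112 and 111 CPM with LPS. Cd1d1, which presents lipids to NKT cells, rose from 26.5 ± 0.586 to 107 ± 0.412 CPM. H2-Q6 and H2-Q7 rose by 2.09 and 2.34, but these Qa-2 genes are near-identical copies whose shared reads were not counted, so the values are uncertain. On the class II side, Ciita, the master regulator, rose from 26.5 ± 0.9296 to 44.6 ± 0.822 CPM, H2-Ab1 from 331 ± 6.69 to 496 ± 3.29 CPM and Cd83, a surface protein that stabilises class II, from 152 ± 0.769 to 362 ± 17.4 CPM. H2-DMa, a chain of the peptide-loading chaperone, fell from 191 ± 5.63 to 68.9 ± 4.74 CPM, and Ctss, the protease that degrades the invariant chain, from 3147 ± 182 to 1384 ± 56.5 CPM. H2-Ob, a chain of the DM inhibitor, rose from 3.97 ± 0.2901 to 7.92 ± 0.602 CPM. Of 7 immunoproteasome subunits and activators 5 rose and 1 fell, with Psme2, a subunit of the PA28 activator, at 235 ± 8.09 to 411 ± 17.9 CPM and the catalytic subunits Psmb9 and Psmb8 changed by 0.59 and 0.51. Of 31 subunits of the constitutive proteasome, 16 rose and 9 fell, none by 2-fold.

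Maturation and migration genes rose together: 23 of 30 rose, 3 fell, and the median log2 change was 1.294. Ly75, the endocytic receptor DEC-205, was 1 of the 5 endocytic receptors that rose, from 117 ± 9.37 to 533 ± 46.9 CPM. It was chosen after its values were seen. Eno2, a neuronal-type enolase kept in this list and the glycolysis list, rose from 1.17 ± 0.0773 to 12.7 ± 1.11 CPM, and Marcksl1, a membrane-cytoskeleton linker, by 3.28. Of 31 Notch ligands and other surface ligands that direct T cells, 16 rose and 8 fell. Jag1 stood at 0.459, 0.616 and 0.732 CPM without LPS and 12.3, 16.04 and 16.8 CPM with LPS, and Dll4, the ligand tied to Th1 responses, at 0.176, 0.0972 and 0 CPM without LPS and 1.69, 3.36 and 2.34 CPM with LPS, so both Notch ligands rose from near the floor. Sema7a, a semaphorin that binds integrins, stood at 53.8, 55.8 and 58.5 CPM without LPS and 598, 583 and 603 CPM with LPS. Slamf1, a self-ligand shared with T cells, rose by 3.80, and Btla, an inhibitory receptor for HVEM, by 3.44 from 0.814 ± 0.6105 to 8.31 ± 0.848 CPM.

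In the list of growth factor receptors, which also holds some ligands, 19 of 29 genes rose and 7 fell. Il2ra, the CD25 chain of the IL-2 receptor, stood at 51.1, 50.3 and 47.9 CPM without LPS and 394, 335 and 345 CPM with LPS. Inhba, the activin A subunit held in this list, rose from 69.3 ± 3.38 to 489 ± 39.3 CPM, and Csf2rb2, the IL-3 specific beta chain, from 448 ± 21.3 to 1466 ± 78.3 CPM; reads that fit both the latter and its near-identical copy Csf2rb were not counted. Csf3r, the G-CSF receptor, stood at 8.15, 13.1 and 13.99 CPM without LPS and 51.5, 74.3 and 66.2 CPM with LPS, again lowest in library 1 of both groups. Irf7, Fpr1, Csf3r, Arg2, Hp and Adgre1, all lowest in library 1, stayed called in the same direction without the 4 libraries numbered 1. Several genes given elsewhere as mean and SD also had their lowest share of reads in library 1 of both groups. Among them were Dgat2, Il1f9, Ifitm6, Nr4a1, Mt2, Mirt2, Acsl1, C1s1, Stab1 and Clec4d, and this list is not complete. Csf1r, the receptor of macrophage growth factor, moved from 245 ± 4.898 to 174 ± 28.7 CPM. Integrins and adhesion molecules split 12 higher and 13 lower of 29. Itga5, the fibronectin receptor chain, rose from 69.9 ± 2.68 to 329.9 ± 13.4 CPM, and Alcam, the CD6 ligand, from 49.5 ± 2.696 to 197 ± 20.5 CPM. Cd24a, a glycosyl-anchored adhesion protein, fell from 394 ± 15.7 to 78.3 ± 12.3 CPM, and Itgae, the CD103 chain, from 5.01 ± 0.2495 to 0.953 ± 0.378 CPM.

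Of 38 transcription factors of myeloid and dendritic identity, 18 rose (47.37%) and 15 fell (39.47%). Cebpe, a granulocyte factor, fell from 47.2 ± 1.14 to 8.37 ± 2.76 CPM, with its lowest LPS value in library 1. The nuclear receptors Nr4a1 and Nr4a2 rose from 1.93 ± 0.369 to 11.9 ± 2.25 CPM and 6.21 ± 1.18 to 27.3 ± 3.41 CPM in turn. Spic, a factor of iron-handling macrophages, rose from 0.0785 ± 0.06902 to 5.34 ± 0.373 CPM.

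In the list of itaconate, arginine, tryptophan and NAD enzymes 17 of 26 rose and 7 fell. Nos2, the inducible nitric oxide synthase, stood at 73.8, 65.8 and 72.2 CPM without LPS and 3596, 3028 and 3083 CPM with LPS. Arg1, the arginase that competes for the same substrate, stood at 3544, 3314 and 3313 CPM without LPS and 439, 392 and 403 CPM with LPS. Both pairs of groups were apart, and the order of the genes reversed: per length, Arg1 was at 4433 TPM and Nos2 at 46.62 TPM without LPS, against 526 and 2089 TPM with LPS. Acod1 stood at 84.4, 78.6 and 79.7 CPM without LPS and 2599, 2511 and 2526 CPM with LPS. Slc7a2, a transporter of arginine shown in the plot of levels by library, rose from 452 ± 31.3 to 2386 ± 176 CPM; it was chosen after its values were seen. Arg2, the mitochondrial arginase, rose from 3.69 ± 1.305 to 26.1 ± 5.55 CPM, with library 1 lowest in both groups. Of 35 glycolysis and hypoxia genes 26 rose and 5 fell (median log2 change 0.426). Hif1a itself moved little, from 254 ± 4.13 to 306 ± 22.2 CPM, while its known targets Egln3, a prolyl hydroxylase, and Hilpda, a lipid droplet protein, rose from 45.7 ± 2.62 to 209 ± 14.1 CPM and 16.5 ± 0.599 to 109.7 ± 2.18 CPM in turn. Slc2a1, the glucose transporter GLUT1, rose from 153 ± 2.58 to 339 ± 10.99 CPM, and Ndrg1 by 1.53. Fbp1, which runs glycolysis backward, stood at 162, 154 and 152 CPM without LPS and 14.4, 11.3 and 12.3 CPM with LPS and was among the 25 largest falls.

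Lipid genes fell more often than they rose. Of 36 genes of cholesterol synthesis, efflux and lipid handling 19 fell and 12 rose. Lpl, the lipoprotein lipase, stood at 2896, 2941 and 2838 CPM without LPS and 947, 848 and 855 CPM with LPS, and Dhcr7, the last enzyme of cholesterol synthesis, fell from 48.4 ± 0.987 to 11.6 ± 0.243 CPM. Acsl1, which activates long-chain fatty acids, rose from 50.9 ± 4.55 to 643 ± 94.8 CPM, and Dgat2, which makes triglyceride, from 5.25 ± 1.98 to 25.5 ± 10.2 CPM. In the list of prostaglandin, leukotriene and phospholipid enzymes, which also holds some receptors, 14 of 26 genes fell and 11 rose. Ptgs2 (COX-2) and Ptges, which act in series to make prostaglandin E2, rose, Ptges from 3.87 ± 0.228 to 41.4 ± 5.903 CPM and Ptgs2 by 9.89 on the log2 scale. Ptgis, the prostacyclin synthase, fell from 7.67 ± 0.298 to 1.28 ± 0.0841 CPM, and Ephx1, an epoxide hydrolase, from 84.4 ± 4.52 to 16.3 ± 1.27 CPM.

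Transporters and metal-handling genes held many large changes: of 38, 25 rose, 21 of them by 2-fold or more, and 9 fell (median log2 change 1.113). Cp, the ferroxidase ceruloplasmin, stood at 7.27, 7.78 and 7.36 CPM without LPS and 224, 226 and 229 CPM with LPS. Hamp, the iron hormone hepcidin, stood at 5.54, 8.17 and 6.499 CPM without LPS and 151, 122 and 117 CPM with LPS. Both were clear of the unstimulated libraries. Mt2, a metallothionein that binds zinc and copper, rose from 0.557 ± 0.276 to 9.24 ± 1.21 CPM, and Slco2b1, an organic anion transporter, fell from 11.5 ± 0.544 to 0.253 ± 0.108 CPM.

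Secreted matrix regulators changed by large factors in both directions; of 36 genes 17 rose and 12 fell. Timp1, the inhibitor of metalloproteinases, stood at 10.2, 9.92 and 10.5 CPM without LPS and 805, 664 and 696 CPM with LPS. Mmp14, a membrane-bound metalloproteinase, rose from 3.18 ± 0.2001 to 128 ± 9.09 CPM, while Mmp12, the macrophage elastase, stood at 6170.0, 5818 and 5766 CPM without LPS and 1486, 1211 and 1248 CPM with LPS. Lox, the collagen cross-linking oxidase, rose from 0.0578 ± 0.0739 to 45.2 ± 8.22 CPM. Complement and secreted defence genes were called higher in 13 and lower in 13 of 35 cases, 37.14% each way and so near the shares of all tested genes. Cfb, factor B of the alternative pathway, rose from 0.116 ± 0.0914 to 9.46 ± 0.921 CPM, C1s1, a protease of the C1 complex, from 0.238 ± 0.0922 to 18.6 ± 4.28 CPM, and Hp, haptoglobin, from 22.3 ± 8.63 to 266 ± 95.2 CPM, library 1 again lowest. Saa3, the acute-phase serum amyloid A3, stood at 0.212, 0.583 and 0.473 CPM without LPS and 569.9, 798 and 783 CPM with LPS. Stromal and endothelial markers were low and lower with LPS, at 469.7 to 530.8 against 236.3 to 256.3 CPM in sum, mostly Vwf and Pecam1, and Cxcl12, Pdgfra, Col3a1 and Alpl had no counts in any of the 6 libraries.

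Signalling by adenosine, ATP and cyclic nucleotides split 15 and 15 of 34. Adora2a, the anti-inflammatory adenosine receptor, stood at 10.9, 12.997 and 13.3 CPM without LPS and 129, 126 and 129 CPM with LPS. Pde4b, which degrades cyclic AMP, rose from 51.2 ± 1.32 to 222 ± 10.1 CPM, and Rgs2, a brake on G proteins, fell from 41.7 ± 3.19 to 6.14 ± 0.311 CPM. Adgre1, the adhesion receptor F4/80 kept in the same list, rose from 37.3 ± 5.24 to 289 ± 58.3 CPM, with library 1 lowest in both groups. Survival and death genes were higher in 24 of 32 cases and lower in 7. Gadd45b and Gadd45a, stress sensors, rose from 50.6 ± 0.648 to 332 ± 9.34 CPM and 31.4 ± 1.08 to 115 ± 7.63 CPM in turn, and Cflar, the caspase-8 inhibitor cFLIP, from 200.4 ± 11.99 to 687 ± 44.5 CPM. Bcl2, the founding survival gene, stood at 19.7, 19.6 and 18.9 CPM without LPS and 2.96, 4.61 and 3.96 CPM with LPS.

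Most genes of lysosomes, ribosome production and cell division fell. Of 38 lysosome, cathepsin and autophagy genes 24 fell and 8 rose. Ctsk, a cathepsin of osteoclasts and macrophages, stood at 108, 99.9 and 100.5 CPM without LPS and 32.02, 29.4 and 29.8 CPM with LPS, and Atp6v0d2, a subunit of the proton pump, fell from 1217 ± 49.5 to 416 ± 55.5 CPM. Sqstm1, the autophagy receptor p62, rose from 500.3 ± 8.005 to 1460.5 ± 49.2 CPM. Cytosolic ribosomal protein genes fell by a little and nearly as a block: 47 of 61 fell, 3 rose, none by 2-fold (median log2 change -0.2192). Their share of all reads went from 3.065% to 3.294% without LPS to 2.604% to 2.682% with LPS. The called falls reached -0.64 for Rpl10a and -0.51 for Rpl3. Of 30 ribosome biogenesis and translation factors 21 fell and 5 rose, led by Dkc1, the pseudouridine synthase, from 25.9 ± 2.22 to 8.11 ± 0.415 CPM, with Nolc1 at -1.08 and Nop58 at -1.05. Of 42 replication and mitosis genes 31 fell and 9 rose; the median log2 change was -0.7644. Ccnd1, the G1 cyclin, stood at 25.9, 26.8 and 26.99 CPM without LPS and 3.03, 4.33 and 4.85 CPM with LPS.

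Among stress and chaperone genes 15 of 40 rose (37.5%) and 18 fell (45%), shares not far from those of all tested genes. Sdf2l1, of the endoplasmic reticulum, stood at 240.4, 238 and 246 CPM without LPS and 68.9, 71.9 and 69.7 CPM with LPS. Hspa1a and Hspa1b, the cytosolic heat shock proteins, rose from 2.47 ± 0.264 to 19.4 ± 0.931 CPM and 3.56 ± 0.4999 to 22.4 ± 1.34 CPM in turn, and as near-identical copies they lose the reads that fit both. Ppp1r15a, which ends the stress block on translation, rose by 1.34. Chromatin and DNA modifying enzymes were higher in 22 of 41 cases and lower in 13. Kdm6b, a histone H3 lysine 27 demethylase known as an LPS-induced gene, rose from 30.7 ± 2.07 to 82.2 ± 5.17 CPM, Kdm4a from 89.8 ± 4.998 to 288 ± 12.5 CPM, and Kmt2a, a methyltransferase, by 1.08.

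**Figure D4:**
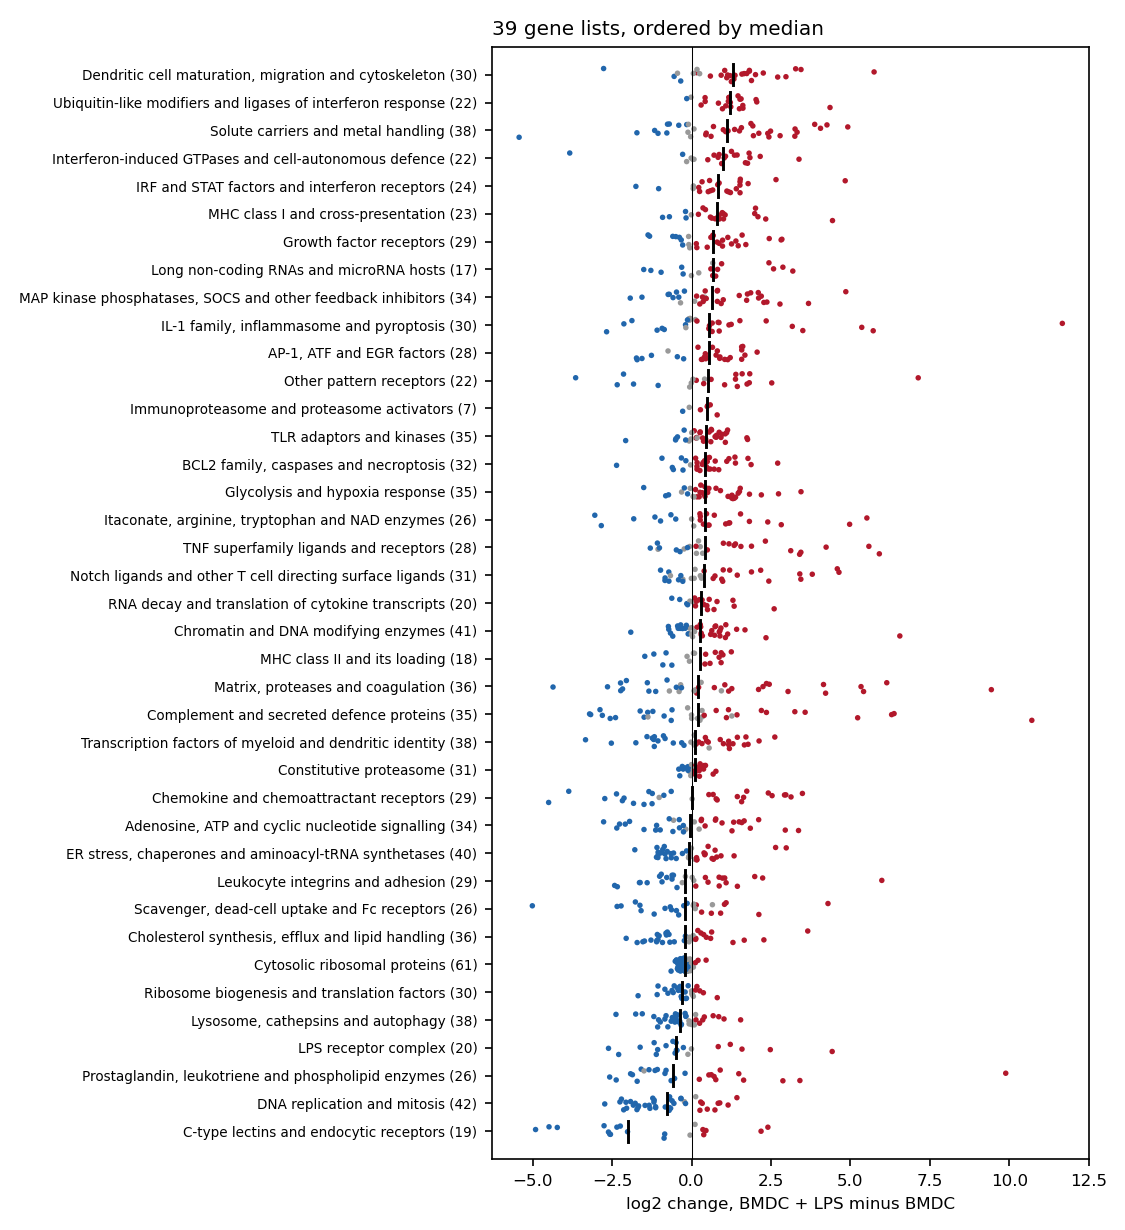
Each row is 1 of 39 gene lists with its number of tested members in brackets, each point 1 gene placed by its log2 change with LPS (red called higher, blue called lower, grey not called), and the black bar the list's median. The medians run from -2.013 for C-type lectins and endocytic receptors to 1.294 for maturation and migration genes.

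Of 402 lincRNAs tested, 16.92% rose by 2-fold or more and 24.88% fell by that much, against 11.02% and 10.27% of 12361 protein-coding genes. Of 339 antisense RNAs the shares were 11.5% and 21.83%. Both classes were nevertheless called less often when no least size of change was required. Not called were 160 of the 402 lincRNAs and 173 of the 339 antisense RNAs, against 3166 of the 12361 protein-coding genes. The library kit keeps strand, and the counts used were those of the matching strand. Mir155hg, the host of microRNA-155, rose from 10.6 ± 0.987 to 57.4 ± 3.61 CPM, and Mirt2, a non-coding RNA known to be induced by LPS, from 1.33 ± 0.232 to 9.82 ± 2.198 CPM. Gm49087 stood at 20.2, 20.7 and 18.2 CPM without LPS and 0.457, 0.875 and 0.629 CPM with LPS, and Gm4610 fell from 16.8 ± 1.43 to 0.5496 ± 0.171 CPM. Gm34047 rose from 0.411 ± 0.135 to 9.87 ± 0.9704 CPM. These unnamed genes have no stated role in the sources used here.

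For 1907 genes, 14.51% of those tested, the 95% interval of the change lay within 1.2-fold in either direction. Eef1a1, the elongation factor, stood at 3896, 4199 and 4216 CPM without LPS and 4323, 3975 and 4024 CPM with LPS, and its groups overlapped. Hspa8, the constitutive heat shock protein, had a log2 change of -0.04 and Msn, the membrane linker moesin, of 0.05.

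The same contrast in TolDC gave a test of which responses differed with VitD/IL10. In TolDC itself 4651 of the 13141 genes were called higher with LPS (35.4%) and 4719 lower (35.9%). By the interaction term of the same edgeR fit, 3151 genes responded more positively in BMDC (24%) and 2683 more negatively (20.4%). Of the 1472 genes at least 2-fold higher in BMDC, 1253 were also called higher in TolDC and 36 were called lower, with median log2 changes of 1.628 in BMDC and 1.308 in TolDC. Of the 1444 at least 2-fold lower in BMDC, 1194 were called lower and 31 higher in TolDC, with medians of -1.603 and -1.365. These genes were chosen by their size in BMDC, so the smaller medians in TolDC are a description.

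Some genes moved in opposite directions. Irf8 rose in BMDC, as given above, and stood at 87.6, 81.4 and 83.4 CPM in TolDC without LPS and 54.7, 51.95 and 49.7 CPM with LPS, a difference of responses of 2.47 on the log2 scale (adjusted p = 1.88e-14, edgeR). Igsf9, an immunoglobulin-family adhesion protein, rose in BMDC from 30.7 ± 2.52 to 87.5 ± 3.13 CPM and went from 69.3 ± 3.49 to 8.17 ± 0.168 CPM in TolDC, a difference of 4.59 (adjusted p = 9.56e-18). Mmp13, a collagenase, fell in BMDC from 28.9 ± 0.9595 to 10.96 ± 1.15 CPM and went from 11.01 ± 0.0843 to 198 ± 10.8 CPM in TolDC, a difference of -5.56 (adjusted p = 2.16e-18). The 2 groups of Mmp13 in BMDC lay between 9.75 and 29.7 CPM, below every LPS library of TolDC. Ctsk fell in BMDC and went from 8.14 ± 0.4897 to 13.99 ± 1.42 CPM in TolDC, so all 6 BMDC libraries were above all 6 of TolDC with or without LPS.

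Others moved the same way by different factors. Ccr4 went from 2.15 ± 0.389 to 18.5 ± 1.396 CPM in TolDC, a smaller rise than in BMDC by 2.49 (adjusted p = 2.84e-08). Abca1, the cholesterol exporter, rose from 12.1 ± 1.91 to 38.2 ± 1.67 CPM in BMDC and from 0.757 ± 0.1001 to 17.4 ± 1.78 CPM in TolDC, a difference of -2.86 (adjusted p = 3.06e-09). Without LPS its level in TolDC was below that in BMDC in every library. Hamp went from 0.532 ± 0.122 to 162 ± 20.8 CPM in TolDC, a difference of -3.96 (adjusted p = 4.05e-05), with unstimulated TolDC libraries below all unstimulated BMDC libraries. Ptges rose further in TolDC, from 6.73 ± 0.818 to 228 ± 9.23 CPM (difference -1.67, adjusted p = 1.02e-05). Cd14 showed no called difference, with a difference of 0.17 and an adjusted p of 0.0517.

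**Figure D5:**
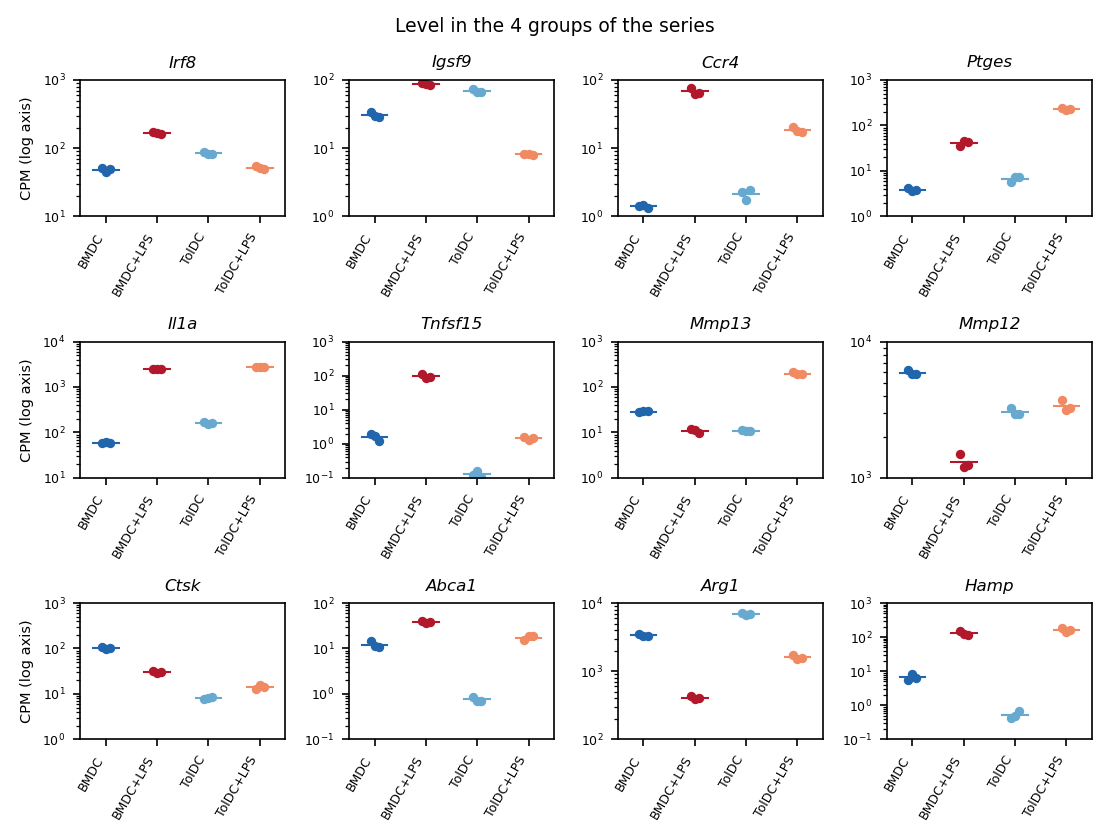
Points give CPM (log axes) of 12 genes in the 3 libraries of each of the 4 groups, with a bar at the group mean. Irf8 and Igsf9 rise with LPS in BMDC and fall in TolDC, Mmp13 does the reverse, and Il1a rises in both, to 2424 to 2476 CPM in BMDC and 2702 to 2783 CPM in TolDC.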

How the data were processed

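Per the labels' protocols, total RNA of CD11c+ cells was made into stranded mRNA libraries. Per the submitters' processing notes, the authors used cutadapt and STAR on mm10 (GRCm38) and name edgeR and limma; no source used here gives versions, settings or annotation. Raw read counts per gene were deposited, with multimapping reads left out. The counts of the strand that held the reads were used, and unmapped, multimapping, no-feature and ambiguous reads were left out of library sizes. Of 31054 genes, 31011 matched GENCODE M21 for names and lengths.

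All 12 libraries were fitted with edgeR 4.0.16 (R 4.3.3; filterByExpr with a minimum count of 10, TMM scaling, robust quasi-likelihood test, 1 mean per group, Benjamini-Hochberg adjustment, calls at an adjusted p below 0.05). CPM used TMM-scaled library sizes. Fits were tested on simulated data. Members and lists were chosen with earlier results of these data known. Genes were named by rule. The rule took the 25 largest rises and falls at 5 CPM or more without overlap. From each list it took up to 4 called members with the largest changes at 5 CPM or more, so most members shown are extremes of their list. It also took the 10 largest gains and losses of read share, genes at 0 counts without LPS and up to 8 long non-coding RNAs. The 10 most abundant steady genes, the 10 largest interactions each way and 30 genes fixed by name were added. Some were left out. Alternatives used DESeq2 1.42.0, limma 3.58.1 and other filters, scalings and library sets. Deviations of equal-numbered libraries without and with LPS correlated at 0.41, 0.1566 and 0.132, each over 0.1, so the replicate number was taken as a block in an alternative; libraries 2 and 3 correlated across numbers as well (0.158 and 0.1993), so the check sets library 1 apart and does not tell numbers 2 and 3 apart.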

Additional observations from a re-analysis of the deposited data

Results flagged for a closer look

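The LPS response of these genes named in the text differed between BMDC and TolDC by the interaction term of the edgeR fit, at an adjusted p below 0.05 and by at least 4-fold. The value is the log2 response in BMDC minus that in TolDC.

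In genes with the more positive response in BMDC, the difference was 5.07 for Ptgs2 (log2 changes of 9.89 in BMDC and 4.82 in TolDC) and 3.52 for Il12a, a chain of IL-12. It was 2.44 for Tnfsf15, 2.49 for Ccr4, 2.35 for Irf7, 2.47 for Irf8, 3.72 for Btla and 4.59 for Igsf9. It was 4.17 for Amelx, 2.83 for M1ap, 2.75 for Ly6a and 2.35 for 9130015A21Rik. For Tlr11 the difference was 4.18, between falls of -2.14 in BMDC and -6.32 in TolDC.

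In genes with the more negative response in BMDC, the difference was -5.56 for Mmp13, -2.31 for Mmp12, -2.52 for the complement gene C1qa, -2.53 for Ctsk and -3.72 for Slc28a3, a nucleoside transporter. It was -2.87 for Adgrl2 and -2.55 for Ch25h, the cholesterol 25-hydroxylase, both of which were lower with LPS in BMDC and higher in TolDC. The difference was -3.96 for Hamp, -2.99 for Orm1, an acute-phase protein, -2.86 for Abca1 and -2.83 for Flrt3, which rose in both. It was -2.34 for Qpct, -2.37 for Gm37035, -4.48 for Msi1, a low-count gene whose fitted size is no bound, and -2.57 for Sirpb1c.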

How the results depend on the processing

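Raising the filter to 5 CPM in 3 libraries left 971 rises and 834 falls of at least 2-fold, since fewer genes were tested. Testing against a 2-fold change (glmTreat) left 1045 rises and 916 falls. Leaving out each BMDC library in turn gave 4647 to 4750 genes higher and 4574 to 4738 lower, and 1481 to 1547 and 1408 to 1514 by at least 2-fold. With the replicate block, 5004 genes were higher and 4965 lower, and 1483 and 1466 by at least 2-fold. DESeq2 gave 4651 and 4545. Summing libraries 2 and 3 of each group, chosen after seeing the data, gave 4576 and 4427. Without the 4 libraries numbered 1, Eef1a1 had a log2 change of -0.07 (adjusted p = 0.00464, edgeR) in place of 0.00; the cause was not tested. Of 218 genes named in the text, 214 kept their call and sign under each of the 16 alternatives that gave them a value; Flt3, Ly6a, S100a8 and Eef1a1 did not. The replicate block changed no named call other than that of S100a8, and 2914 of 2916 genes with a 2-fold change stayed called in the same direction. That number was 2859 with libraries 2 and 3 summed, 2854 by DESeq2 and 2816 without the 4 libraries numbered 1. Genes responding more positively in BMDC than in TolDC numbered 2424 with libraries 2 and 3 summed and 3500 with the replicate block. Those responding more negatively numbered 1994 and 3043 in turn. With 3 libraries a group the size of changes in genes with few counts is the least precise.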

Other observations

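Genes that are neighbours on a chromosome in several cases changed in the same direction. Among tested protein-coding genes, 51 runs of 3 or more neighbours had every member up by 2-fold or more (172 genes). Another 40 runs had every member down by that much (130 genes). Of the 12361 protein-coding genes, 1362 in all rose and 1269 fell by this size. How many such runs a random gene order would give was not tested, so the counts are a description only. The examples here were picked with their values in view. The interferon-inducible genes Ifi204, Mndal, Ifi211, Ifi203 and Ifi205 were all higher on chromosome 1 between 173747293 and 174031810 (GRCm38), and Stat5b, Stat5a and Stat3 on chromosome 11 between 100780731 and 100939540. The inhibitory and activating receptor genes Cd300a, Cd300lb, Cd300c, Cd300ld and Cd300c2 were all lower on chromosome 11 between 114890041 and 115001880, and the complement genes C1qb, C1qc and C1qa on chromosome 4 between 136880129 and 136898803. Reads that fit several near-identical genes of a cluster were not counted.

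Some changes rested on few counts without LPS. Tet1, a DNA demethylase, had 2 counts in the 3 unstimulated libraries together and 192 with LPS, a ratio of 109.3 with a 95% counting interval of 29.86 to 909.3. Enpp2, the lysophosphatidic acid enzyme autotaxin, had 2 and 300 counts, a ratio of 170.8 (46.88 to 1417). Serpinb12 had 185 counts without LPS and 1 with LPS, 162.4-fold lower (28.8 to 6450). These 3 genes, too, were picked with their values in view, and the intervals cover counting error only.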
